A study of Homo sapiens with 2 samples.

Results

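The miR-181 family of microRNAs (miRNAs) was examined in CL1-5, a human lung adenocarcinoma cell line of high invasiveness, with and without overexpression of ANGPTL1, a secreted protein of the angiopoietin-like family. Members were assays whose name is miR-181 followed by a, b, c or d, and 3 of the 366 assays, RNU48 included, met this rule: miR-181b (assay 4373116), miR-181c (assay 4373115) and miR-181d (assay 4373180). miR-181a was not analysed here. The family was chosen by its name with earlier results of these data known, among them the threshold cycles and log2 ratios of miR-181b and miR-181d, so these values are given as a description.

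There was 1 RNA sample from CL1-5 cells expressing ANGPTL1 and 1 from CL1-5 cells expressing the empty vector pcDNA3.1. Both were stably expressing cells selected with the antibiotic G418, which the control therefore also received, and the labels do not say whether either was a clone or a pool. ANGPTL1 itself was not measured in these data. Levels were measured by quantitative reverse-transcription PCR on TaqMan Low Density Array cards as the threshold cycle (Ct), the point among 40 PCR cycles where fluorescence passes a fixed level. With 1 sample per group there is no replicate spread and no test, and each difference compares these 2 RNA samples. In RNA from whole cultures, fewer cells that hold a miRNA and less miRNA per cell cannot be told apart.

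A miRNA pairs mainly through its seed, bases 2 to 8, with messenger RNAs, which it represses. The miR-181 family is known above all from lymphoid development, where miR-181a tunes the sensitivity of the T cell receptor in mouse thymocytes. miR-181b is known to repress importin-alpha 3, a carrier that brings NF-kappaB into the nucleus, in endothelial cells, and miR-181d to repress the DNA repair gene MGMT in glioma cells. TGF-beta, a driver of the epithelial-mesenchymal transition, is known to raise miR-181 in several epithelial cancers.

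The mature sequences are shown first because the assays read RNAs that are nearly alike. They come from RefSeq (GRCh38.p14), run 5′ to 3′, and carry the seed, bases 2 to 8, in capitals. The assay names give no arm. The 5p arm was taken for miR-181b, miR-181c and miR-181d as the arm that these older names stand for, and miR-213 as the older name of miR-181a-3p, the opposite arm of the miR-181a-1 hairpin.

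miR-181b: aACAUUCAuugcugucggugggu

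miR-181c: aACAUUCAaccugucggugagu

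miR-181d: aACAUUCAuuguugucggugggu

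miR-213: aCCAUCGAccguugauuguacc

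The 3 members share the seed ACAUUCA. Of 2370 mature human miRNA names in the RefSeq table, 5 have this seed: miR-181a-5p, miR-181b-5p, miR-181c-5p, miR-181d-5p and miR-4262. miR-181b and miR-181d are both 23 bases long and differ by 1 substitution, C12U, with miR-181b as the first base and positions counted from the 5′ end. They share their last 11 bases, the end at which the reverse-transcription primer of such assays binds. miR-181c is 22 bases long and matches the others over the first 8 bases. Its unbroken match at the 3′ end is 2 bases, up to an A where the others have a G. The stretch before that base, UGUCGGUG, is the same in all 3 members. miR-213 has a different seed.

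The mature miR-181b is encoded at 2 places in the genome with the same sequence, so that the assay reads their sum. On GRCh38.p14 these are chr1:198858925-198858947 on the minus strand (MIR181B1) and chr9:124693725-124693747 on the plus strand (MIR181B2). MIR181B1 lies 61 bases from MIR181A1 on chromosome 1, inside the annotated span of the long noncoding RNA gene MIR181A1HG. MIR181B2 lies 1158 bases from MIR181A2 on chromosome 9, inside the spans of MIR181A2HG, another long noncoding RNA gene, and of NR6A1, which encodes an orphan nuclear receptor. miR-181c (chr19:13874725-13874746) and miR-181d (chr19:13874910-13874932) come from hairpins 66 bases apart on chromosome 19, both on the plus strand and inside the annotated span of NANOS3, which encodes an RNA-binding protein of germ cells. miR-213 is encoded at chr1:198859069-198859090 on the minus strand, in the MIR181A1 hairpin.

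The hairpins of the chromosome 19 pair are printed with the 5p arm in capitals to show how the arm that each assay reads sits in these neighbouring genes.

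MIR181C: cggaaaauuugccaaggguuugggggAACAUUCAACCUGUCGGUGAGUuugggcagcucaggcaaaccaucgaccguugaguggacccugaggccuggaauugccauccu

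MIR181D: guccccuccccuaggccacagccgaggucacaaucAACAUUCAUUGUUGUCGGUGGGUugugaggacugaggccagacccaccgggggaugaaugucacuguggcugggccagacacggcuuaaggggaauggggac

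The cards as a whole were alike in the number of miRNAs they detected. A miRNA counted as detected below cycle 35, which held for 158 assays in ANGPTL1 cells and 157 in control cells, and 153 and 155 assays stood at cycle 40, read as no amplification. RNU48, the small nucleolar RNA used as the reference, stood at 21.21 in ANGPTL1 cells and 20.79 in control cells. Delta Ct, the Ct of an assay minus that of RNU48 in the same sample, is the level used below, and a lower delta Ct means more miRNA. The log2 ratio of ANGPTL1 over control cells is the delta Ct of control cells minus that of ANGPTL1 cells. A positive ratio means more miRNA in ANGPTL1 cells, and its size assumes that each cycle doubles the template.

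The family was detected in part. Of the 3 members, 2 were detected in at least 1 sample, against 46.6% of all miRNA assays, and 1 was detected in both samples, against 39.7%. miR-181d was below cycle 35 in both samples, miR-181b in ANGPTL1 cells alone and miR-181c in neither.

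miR-181b stood at cycle 31.95 in ANGPTL1 cells and 35.77 in control cells. Its delta Ct was 10.74 in ANGPTL1 cells and 14.98 in control cells, so the miRNA was higher in ANGPTL1 cells and 0.77 cycles past the detection limit in control cells. With the control cycle set to the limit of 35, the log2 ratio was at least 3.47, or at least 11.1-fold higher. The authors' deposited table, which uses the late control cycle as measured, gives 18.9-fold, a log2 difference of 4.24.

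miR-181d stood at cycle 30.60 in ANGPTL1 cells and 29.93 in control cells. Its delta Ct was 9.39 in ANGPTL1 cells and 9.14 in control cells, a log2 ratio of -0.25, or 1.19-fold lower. It was the earliest member in both samples, 4.40 cycles inside the limit in ANGPTL1 cells and 5.07 in control cells, and it lay within 2-fold.

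miR-181c stood at cycle 38.14 in ANGPTL1 cells and 37.59 in control cells. Its delta Ct was 16.93 in ANGPTL1 cells and 16.80 in control cells. Both cycles were later than the limit, by 3.14 in ANGPTL1 cells and 2.59 in control cells, so no ratio is read from them and a difference was not detectable at this depth. The authors' deposited table gives 0.914 for ANGPTL1 over control cells, a log2 difference of -0.13.

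**Figure D1:**
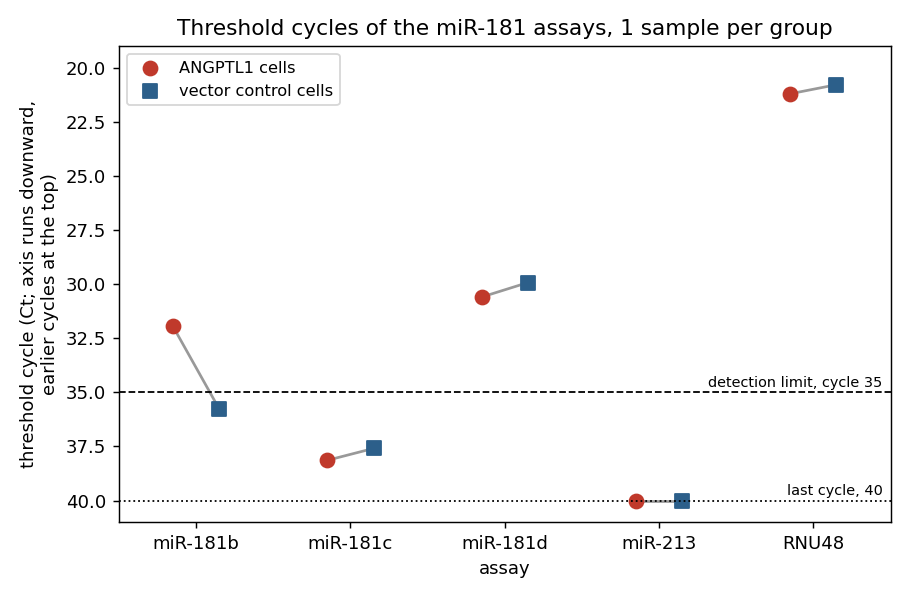
Threshold cycle of each miR-181 assay, of miR-213 and of RNU48 in ANGPTL1 cells (circles, left) and vector control cells (squares, right), 1 sample each, with earlier cycles at the top of the vertical axis. miR-181b crosses the dashed detection limit of 35, at 31.95 in ANGPTL1 cells and 35.77 in control cells, while miR-181d stays above the line and miR-181c below it.

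One of the 2 detected members, miR-181b, was at least 2-fold higher in ANGPTL1 cells by its ratio or bound, and neither was 2-fold lower. By the same rule 20 (11.8%) of the 170 miRNAs found below the limit in 1 or both samples were higher and 9 (5.29%) were lower. Of the miRNAs detected in both samples, 11 (7.59%) were higher, 7 (4.83%) were lower and 127 lay within 2-fold. The bound of miR-181b was the second highest of the 167 ratios and bounds with a direction, after miR-155 at 3.58, a miRNA of immune activation, and before miR-127 at 3.04, from the imprinted 14q32 region. miR-181d ranked 110th of the 167 from the top. By the deposited differences of the 187 assays below cycle 40 in both samples, miR-181b (4.24) was again second, after miR-485-3p (6.16), whose control cycle was 39.71.

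In ANGPTL1 cells miR-181b lay 3.05 cycles inside the limit. Of the 13 miRNAs detected in ANGPTL1 cells alone it had the earliest cycle there, followed by miR-376a (assay 4373026) at 33.03 and miR-137, a brain-enriched miRNA, at 33.11. Its control cycle fell in a range where cycles differ widely between the samples. Among the 31 other assays within 1 cycle of its control cycle, the cycle in ANGPTL1 cells ran from 33.03 to 40, with a median of 36.32. None of the 31 was as early as miR-181b in ANGPTL1 cells, 8 were below cycle 35 there and 10 stood at 40. Their deposited log2 differences ran from -4.71 to 3.06, with 8 at least 2-fold higher and 11 at least 2-fold lower in ANGPTL1 cells.

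Seen from the other sample, 25 other assays lay within 1 cycle of miR-181b in ANGPTL1 cells. All 25 were below cycle 35 in control cells, from 28.75 to 34.46 with a median of 31.32, so miR-181b alone of these 26 assays was past the limit there.

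The same view was taken of the other members. Among the 33 other assays within 1 cycle of the control cycle of miR-181d, the deposited log2 differences had a median of 0.02 and 27 lay within 2-fold, as did miR-181d. Of the rest, 3 were higher and 3 lower, down to -10.33 for an assay at cycle 40 in ANGPTL1 cells. Among the 16 other assays within 1 cycle of the control cycle of miR-181c, 7 stood at 40 in ANGPTL1 cells and the deposited differences ran from -2.89 to 2.89, a range that holds the -0.13 of miR-181c.

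**Figure D2:**
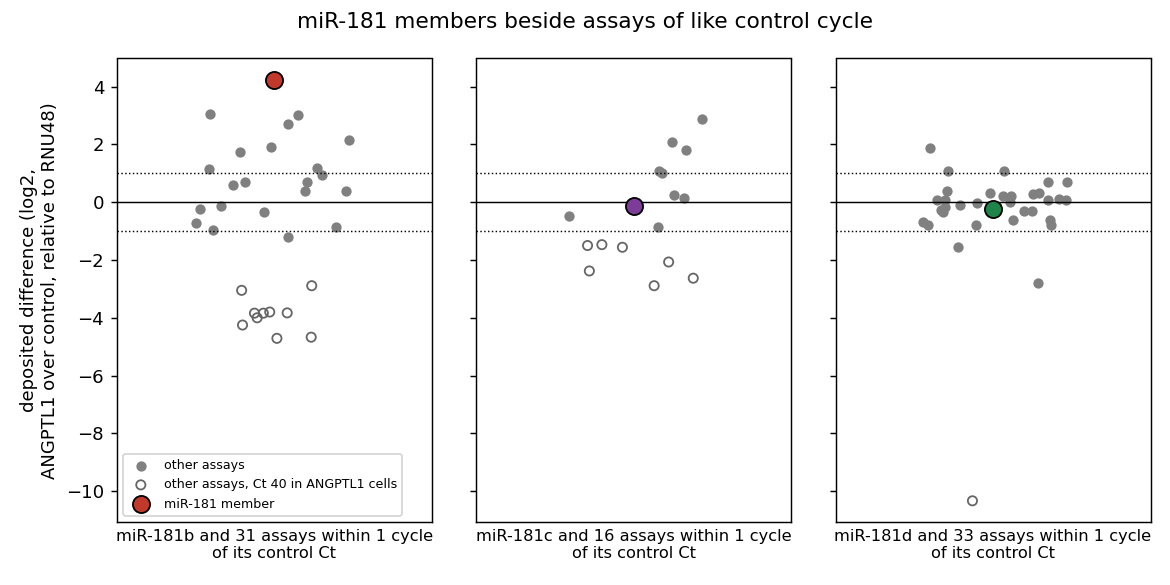
Deposited log2 difference (ANGPTL1 over control, relative to RNU48) of each miR-181 member (large symbol) and of the other assays within 1 cycle of its control Ct (31 for miR-181b, 16 for miR-181c, 33 for miR-181d; open symbols stand at cycle 40 in ANGPTL1 cells). miR-181b lies above all 31 of its neighbours in cycle, while miR-181c and miR-181d lie near 0, between the dotted 2-fold lines.

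**Figure D3:**
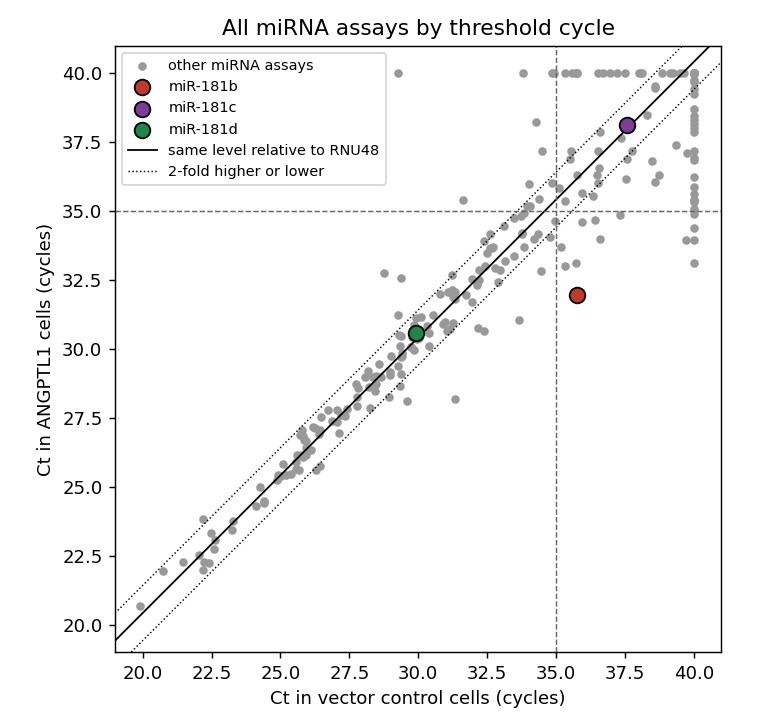
Ct in ANGPTL1 cells against Ct in vector control cells for all miRNA assays, 1 point each, with dashed lines at the detection limit of 35, a solid line for an equal level relative to RNU48 and dotted lines 2-fold to either side. miR-181b lies below the dotted lines, on the side of more miRNA in ANGPTL1 cells, and miR-181c and miR-181d lie between them.

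The pair on chromosome 19 was compared as cluster partners. The cycle of miR-181c was later than that of miR-181d by 7.54 in ANGPTL1 cells and by 7.66 in control cells, a gap that holds any difference between the assays' own efficiencies as well as the levels. From the deposited cycles the log2 difference of miR-181d minus that of miR-181c was -0.12, a value in which RNU48 cancels. This value rests on cycles of miR-181c past the limit, so only miR-181d is known to lie within 2-fold in these samples.

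For the other loci the partner comparison could not be completed, since miR-181a was not analysed here. The one assay from a miR-181a hairpin, miR-213, stood at cycle 40 in ANGPTL1 cells and 40 in control cells. A difference in miR-213 was not detectable, so whether the large difference of miR-181b is shared by a cluster partner was not tested. The deposited log2 difference of 0.42 for miR-213 is that of RNU48 alone and is no measurement of the miRNA. miR-213 is the opposite arm to miR-181a-5p, its level need not follow that of the main arm, and nothing here separates the chromosome 1 from the chromosome 9 copy of miR-181b.

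Between the loci the members differed. The cycle of miR-181b was later than that of miR-181d by 1.35 in ANGPTL1 cells and by 5.84 in control cells. The log2 ratio of miR-181b exceeded that of miR-181d by at least 3.72, or at least 13.2-fold, and by 4.49 with the cycles as deposited. How far either assay reads the other's RNA, which differs by 1 base, was not tested.

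Other genomic neighbours give the scale of partner differences among miRNAs detected in both samples. Of 24 listed clusters, 13 had at least 2 such partners, which made 33 pairs, many of them sharing a member. miR-16 was listed as a partner of miR-15a and of miR-15b, and its single value (-0.36) was used for both, so it belongs to neither cluster alone. The miR-17-5p to miR-92 cluster gave the most pairs, with log2 ratios 0.02 to 0.29 apart. The median size of the difference in log2 ratio between partners was 0.24, a value that rests in large part on that 1 cluster. Of the 33 pairs, 32 lay under 1. The exception was miR-424 against miR-503, of the X-linked cluster related to miR-16, at 1.22. The miR-181c and miR-181d pair has no place on this scale, since miR-181c was past the limit in both samples. miR-181b has none either, as it was detected in ANGPTL1 cells alone and no partner was compared.

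Among these clusters 7 miRNAs were at least 2-fold apart between the samples by ratio or bound, with 8 comparisons to a partner. The partner was past 2-fold in the same direction in 2 of the 8, both from the p53-induced pair of miR-34b (at least 1.46) and miR-34c (2.04). For miR-183 (-1.55) the partner miR-96 was detected in control cells alone, at cycle 36 in ANGPTL1 cells and 34.03 in control cells. Its bound of -0.55 leaves the size unsettled, and its deposited difference is -1.55. In the remaining one, miR-200c (1.82), a repressor of the transition factors ZEB1 and ZEB2, had its partner miR-141 past the limit in both samples, at cycle 35.40 in ANGPTL1 cells and 40 in control cells. miR-193b, like miR-181b detected in ANGPTL1 cells alone, had a bound of 1.72. Its partner miR-365, counted among the 4, was close to no difference at 0.14. Without RNU48 miR-365 lay the other way, at cycle 27.34 in ANGPTL1 cells and 27.06 in control cells.

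**Figure D4:**
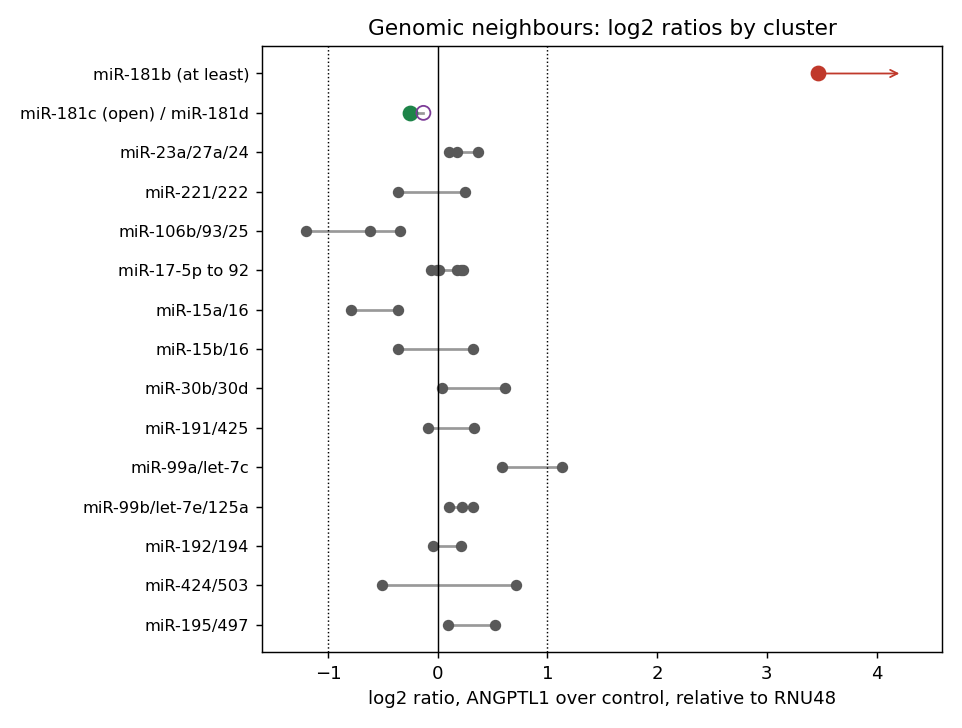
Log2 ratio (ANGPTL1 over control, relative to RNU48) of miR-181b, of miR-181c and miR-181d, and of the members of 13 other genomic clusters detected in both samples, 1 point per miRNA and 1 line per cluster. miR-181b is at its bound of 3.47 with an arrow to the deposited 4.24, the open symbol of miR-181c marks cycles past the limit, and all other clusters span less than 1 log2 unit except miR-424 and miR-503.

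By delta Ct over the 2 samples, the miRNAs most like miR-181b were miR-137, at a Euclidean distance of 1.16, miR-376a (assay 4373026) at 1.17 and the p53-induced miR-34c at 1.58. miR-137 had a delta Ct of 11.90 in ANGPTL1 cells and 14.96 in control cells, close to miR-181b in control cells and 1 cycle or more later in ANGPTL1 cells. Most like miR-181d were miR-615, at a distance of 0.06, miR-29c, a repressor of collagen genes, at 0.23, and miR-328 at 0.24. miR-615 had a delta Ct of 9.34 in ANGPTL1 cells and 9.17 in control cells.

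Other miRNAs linked to TGF-beta and the epithelial-mesenchymal transition were listed for comparison. The list was not split by the direction of the link, so its median and counts do not read the activity of TGF-beta. Of 13 listed, 11 stood on a single assay of that name. Of these, 6 were detected in both samples, against 39.7% of all miRNA assays, and 5 in neither, against 53.4%. The median log2 ratio of the 6 was 0.16, against -0.01 over all miRNAs detected in both samples. In ANGPTL1 cells 2 of the 6 were higher by 2-fold or more, miR-155 (3.58) and miR-200c (1.82), against 7.59% of all miRNAs detected in both samples, and 0 were at least 2-fold lower, against 4.83%. The other 4 lay within 2-fold: miR-24 at 0.37, miR-29a at -0.05, miR-29c at -0.26 and miR-21, an abundant oncogenic miRNA, at -0.42.

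Markers of lymphoid and blood cells, where the miR-181 family is high, were also read. Of 7 listed, 5 were measured under that name, and 3 of these were past the limit in both samples, against 53.4% of all miRNA assays. miR-142-3p, found in all blood lineages, stood at cycle 37.19 in ANGPTL1 cells and 34.51 in control cells, and miR-223, a myeloid miRNA, at 40 in ANGPTL1 cells and 35.58 in control cells. miR-486, abundant in red blood cells, was detected in both, at 32.75 in ANGPTL1 cells and 28.75 in control cells, a log2 ratio of -3.58. These 3 were later in ANGPTL1 cells, where miR-181b was earlier. The other 2 were earlier in ANGPTL1 cells but past the limit in both samples: miR-142-5p stood at 36.30 in ANGPTL1 cells and 38.73 in control cells, and miR-451 at 36.83 in ANGPTL1 cells and 38.50 in control cells. Their part in the value of miR-181b was not tested.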

How the data were processed

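The deposited data were 3 tables with 366 assays, RNU48 included. The authors' average Ct and delta Ct are on a cycle scale, a score without a linear unit, per the file headers, and the deposited fold change is a ratio of ANGPTL1 over control cells. Deposited delta Ct differed from Ct minus RNU48 Ct by at most 0.01. The number of wells averaged is not given in the sources used here, nor is the threshold setting. In the delta Ct table, 2 columns that repeat delta Ct on a linear scale were not used.

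Log2 ratios were delta Ct in control minus ANGPTL1 cells. An assay detected below cycle 35 in 1 sample had its other Ct set to 35, which gives a bound. At 35 or later in both samples no ratio was read. Large meant 2-fold. With 1 sample per group no test was made. The calculation was tested on simulated cycles without noise, which checks its arithmetic and not the behaviour of late cycles.

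Named were all members, miR-213, RNU48, the 3 miRNAs nearest to each detected member in delta Ct, and up to 4 per list with the earliest control cycle. Others, such as miR-485-3p, miR-127, miR-155 and miR-200c, were named after their values were seen. Members, lists and clusters were chosen with earlier results of these data known, and names on several assay numbers were left out of lists. Alternatives were the reference, detection limit, fold threshold and value table. Sequences and coordinates are from RefSeq (GRCh38.p14). Python 3.11.15 with pandas 2.3.3 was used.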

Additional observations from a re-analysis of the deposited data

How the results depend on the processing

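Other fold thresholds, 1.5-fold and 4-fold, were applied to the counts of all miRNAs alone. The 9 alternatives run on the ratio of miR-181b all reuse the same measured cycles, so a kept direction is no independent check. The direction of miR-181b, higher in ANGPTL1 cells, held under them, but its size did not. Its log2 bound of 3.47 was 3.05 without a reference RNA, 3 with the median Ct of each sample as reference, 4.24 with the authors' fold change table, with cycles up to 40 as measured and with limits of 38 or 40, and 0.47 with a limit of 32, which lies 0.05 cycles past its Ct in ANGPTL1 cells. The difference between miR-181b and miR-181d (3.72), added after the data were seen, was 4.49 under those same cycle-based alternatives and 0.72 with a limit of 32. Without a reference miR-181d was at -0.67 and miR-181c at -0.55, and with the median Ct at -0.72 and -0.60. The median over all detected miRNAs shifts by -0.42 and -0.47 under these references. A reference from the median difference of cycles, also added later, shifts it by 0.01. The -0.12 between miR-181d and miR-181c did not depend on the reference.

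Members detected in both samples numbered 2 with a limit of 38 and 3 with 40, in place of 1. Cluster pairs 2-fold or more apart numbered 0 with a limit of 32 and 2 with 38 or 40, in place of 1. Of all miRNAs, 11 higher and 7 lower became 24 and 28 at 1.5-fold, 4 and 2 at 4-fold, 6 and 29 without a reference, 6 and 31 with the median Ct, and 6 and 2, 23 and 11, and 29 and 12 with limits of 32, 38 and 40, where fewer or more assays are counted. No paired analysis was possible because there is a single sample per group, and no replicate could be left out.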
